A study of Caenorhabditis elegans with 2 samples.

Results

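The 156 col- genes of Caenorhabditis elegans, out of 19973 protein-coding genes in the Ensembl annotation, were examined for peaks of the transcription factor SMA-9. A gene was taken when its name starts with col-, whatever its binding values. The family itself was chosen with earlier results of these data known. Chromatin immunoprecipitation with sequencing (ChIP-seq) had been done on whole L2 larvae, males and females pooled, with 2 biological replicates in 1 group. Both replicates were of strain OP130, which carries the unc-119(ed3) allele on chromosome III and the transgene wgIs130 with an eGFP-tagged sma-9. The labels name the antibody by its target, sma-9, and give neither the promoter of the transgene nor the state of the native sma-9 gene. There was no second group, so each value of the col- genes was set beside that of other coding genes, as a description with no test. Whole larvae were used, so the cells in which a peak arose cannot be told apart.

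Cuticle collagens are short secreted proteins with runs of the triplet Gly-X-Y, which wind into a triple helix. The epidermis (hypodermis) makes them anew for each moult, and they are crosslinked into the cuticle that covers the larva. SMA-9 is the worm homologue of the zinc finger factor Schnurri and works beside SMADs in Sma/Mab signalling, a BMP-like pathway that sets body size through the hypodermis. Several cuticle collagens are known effectors of that pathway on body length, which gives this gene family its interest here.

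The name was checked against the annotated proteins. A run of at least 10 uninterrupted Gly-X-Y triplets was found in 155 of the 156 col- products, with a median longest run of 21 triplets, and in 27 of 7059 other coding genes of like length. The exception was col-17, whose annotated frame has a longest run of 1. RefSeq product names include the word cuticle for 149 of the 156. The products are 154 to 740 residues long, with a median of 304. By this check the name marks collagens, although col-99 is known as a transmembrane collagen rather than a secreted cuticle component.

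The genes are spread over all 6 chromosomes, with 21 on I, 24 on II, 12 on III, 41 on IV, 31 on V and 27 on X. They are short, with a median length of 1220 bp (521 to 9946 bp). The other genes of like length are those of 981.5 to 2186 bp, the 10th to the 90th percentile of the col- genes, and have a median of 1542 bp. Each of the pooled, replicate 1 and replicate 2 lists holds 30000 peaks, and the thresholded list holds the 125 pooled peaks of highest signal. A peak was assigned to a gene when its summit, the centre of the peak, lay in the gene or up to 2 kb upstream. The signal of a peak is given as deposited and has no stated scale, so peaks are ranked within a list, rank 1 being the strongest.

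SMA-9 summits were assigned to col- genes about as often as to other genes. In the pooled list 103 of 156 col- genes had a summit, 66.0% (exact 95% interval 58.0% to 73.4%). The share was 68.8% in the other coding genes of like length and 73.2% in all other coding genes. Over all other coding genes between the shortest and the longest col- gene, weighted to the lengths of the col- genes, the share was 66.6%. Since the relaxed lists reach most genes, the assignment of a peak says little about a single gene.

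In the pooled list the col- shares at stricter rank limits were below those of the others. Among the 5000 strongest pooled peaks, 22 col- genes had a summit, 14.1% (9.05% to 20.6%), against 16.6% of the others. Among the 1000 strongest there were 3, col-63, col-12 and col-121, which is 1.92% (0.398% to 5.52%) against 3.39%. In the thresholded list 0 of the 156 col- genes had a summit, which allows a share of up to 2.34% by the exact interval, against 13 of 7059 other genes or 0.184%. The background lies below that bound, so the count of 0 shows no difference. In replicate 1 the shares were 12.2% against 16.8% among the 5000 strongest peaks and 3.21% against 3.33% among the 1000 strongest. In replicate 2 they were 19.2% against 17.2% and 3.85% against 3.43%. Among the 125 strongest peaks of replicate 1 there were 2 col- genes, 1.28% against 0.212%, which share 1 summit, and in replicate 2 there were 0 against 0.297%.

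**Figure D1:**
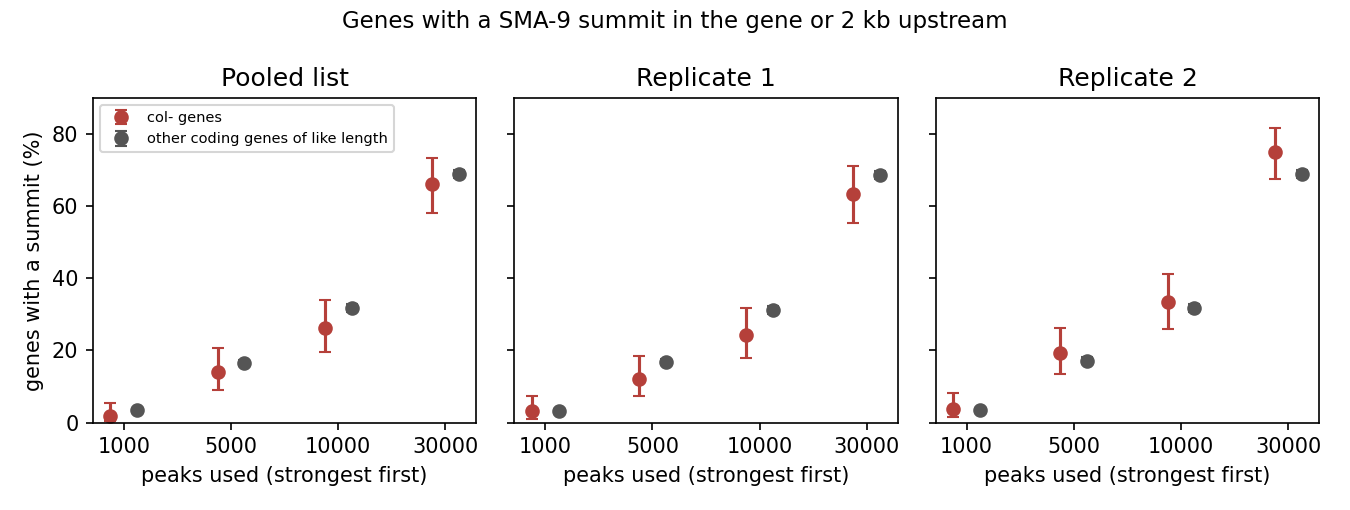
Share of genes (%) with a SMA-9 summit in the gene or 2 kb upstream, by the number of strongest peaks used, for the pooled list and each replicate. Red points are the 156 col- genes and grey points the 7059 other coding genes of like length, with exact 95% intervals over genes. At the whole pooled list the col- share was 66.0% and the others' 68.8%, while in replicate 2 the col- points lie above the others at each limit shown, at 75% against 69% for the whole list.

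The replicate lists differed for the col- genes. In replicate 1, 99 genes had a summit, 63.5% (55.4% to 71.0%), against 68.7% of the others. In replicate 2, 117 genes had one, 75% (67.4% to 81.6%), against 69% of the others. The col- share was thus below that of other genes in replicate 1 and above it in replicate 2, with differences of -5.25 and 6.04 percentage points. Against genes of like length these 2 values lie on opposite sides of 0, so the replicates give no common direction there. No test was run on them. Among genes of 40.4% to 55.9% GC, 124 col- genes and 1284 others, the col- share was the higher in each relaxed list. It was 66.1% against 60.5% in the pooled list, 63.7% against 59.0% in replicate 1 and 71.0% against 67.7% in replicate 2.

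A summit in both replicate lists was found at 75 col- genes, 48.1% (40% to 56.2%), against 50.6% of the others. All 3 relaxed lists reached 63 col- genes, 40.4% against 46.0%. Replicate 1 alone reached 24 genes and replicate 2 alone 42, the latter being 26.9% against 18.3% of the others. No list reached 13 col- genes, 8.33% against 11.6%. Of those 13, 4 are genes of which under 80% of the 32-base words occur once in the genome, a condition met by 37 of all 156 col- genes. Reads from such repeated sequence can be hard to place, and the effect on these counts was not tested.

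The strongest peak of the family lay upstream of col-63, which encodes a cuticle collagen on chromosome I. Its pooled signal was 32 at rank 170, with the summit 563 bp upstream of the gene. The replicate 1 signal was 18.8 at rank 482 and the replicate 2 signal 11.4 at rank 1051, at 530 and 554 bp upstream. The pooled and both replicate lists therefore placed this peak among their strongest, at nearly the same place. It is not in the thresholded list. The summit also lies inside the annotated end of ceh-8, a homeobox gene, 5422 bp from the start of that gene.

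Next came col-12 on chromosome V, at pooled rank 833 with a signal of 24.6. Its summit lay 1630 bp upstream, with a replicate 2 signal of 14.4 at rank 175 and a replicate 1 signal of 10.9 at rank 9140. The same summit falls inside the neighbouring gene tag-314 and 475 bp upstream of apc-10, which encodes a subunit of the anaphase-promoting complex, so its assignment to col-12 is one of several. The summit of col-121 lay in a coding exon, 615 bp from the 5′ end, at the same base in all 3 lists. Its signal was 24.2 at pooled rank 938, 14.2 at rank 2660 in replicate 1 and 8.71 at rank 4743 in replicate 2. col-121 and col-63 are the 2 members among the 5000 strongest peaks of every relaxed list.

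The pair col-159 and col-160 held the strongest replicate 1 peak of the family. One summit lay 166 bp upstream of col-159 and 154 bp upstream of col-160, whose annotated gene is almost wholly inside that of col-159. Its signal was 25.5 at rank 105 in replicate 1, among the 125 strongest of that list, and 21.1 at rank 2369 in the pooled list. The best replicate 2 summit of the pair had a signal of 6.70 at rank 12752 and lay 486 bp upstream of col-159, apart from the pooled one. Replicate 2 therefore does not hold this peak at a like rank. col-106 had a summit close to its start, 128 bp upstream, with a pooled signal of 22.3 at rank 1688, replicate 1 rank 1790 and replicate 2 rank 15404.

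The summit windows of these genes are shown because they carry some of the strongest peaks of the family in the pooled list and in each replicate. Each is 201 bases of the WBcel235 (ce11) assembly centred on the pooled summit, on the minus strand, as all of these genes are, and written 5′ to 3′. The col-12 window is V:10426728-10426928, the col-121 window IV:9395503-9395703, the col-106 window IV:1460814-1461014 and the shared col-159 and col-160 window V:13202243-13202443. Capitals mark matches on either strand to any of 5 motifs. GTCT is the core of the SMAD-binding element. GAGAGA is the site of GAGA-type factors known from flies. CACGTG is the E-box of helix-loop-helix factors. GATAA is the core of sites for GATA factors, which act in the worm epidermis and gut. AGGTCA is the half-site of nuclear receptors, some of which drive moulting.
col-12 summit: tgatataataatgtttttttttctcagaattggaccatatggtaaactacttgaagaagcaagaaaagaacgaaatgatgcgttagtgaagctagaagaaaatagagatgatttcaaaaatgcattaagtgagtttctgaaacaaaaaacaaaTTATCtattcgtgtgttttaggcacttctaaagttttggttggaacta
col-121 summit: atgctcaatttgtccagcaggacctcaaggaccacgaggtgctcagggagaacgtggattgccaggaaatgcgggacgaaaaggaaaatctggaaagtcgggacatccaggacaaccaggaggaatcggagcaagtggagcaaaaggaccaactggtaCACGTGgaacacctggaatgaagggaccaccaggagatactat
col-106 summit: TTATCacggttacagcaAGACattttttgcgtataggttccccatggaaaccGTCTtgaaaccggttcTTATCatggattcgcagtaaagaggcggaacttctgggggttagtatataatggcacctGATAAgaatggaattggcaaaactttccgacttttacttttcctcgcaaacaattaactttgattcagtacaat
col-159 and col-160 summit: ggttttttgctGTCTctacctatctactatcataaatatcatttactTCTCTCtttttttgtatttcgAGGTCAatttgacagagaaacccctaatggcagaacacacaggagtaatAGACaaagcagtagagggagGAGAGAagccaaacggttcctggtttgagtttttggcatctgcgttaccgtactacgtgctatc
In composition and in motifs these windows differ. The col-12 window has a GC content of 29.9% and holds 1 GATAA and no GTCT. The col-121 window has a GC content of 52.2%, lies in coding sequence and holds 1 CACGTG. The col-106 window holds 2 GTCT and 3 GATAA matches. The col-159 and col-160 window holds 2 GTCT, 2 GAGAGA and 1 AGGTCA. Of the windows not shown, that of col-168 holds no match to the 5 motifs, and that of col-78 holds 1 GTCT and 2 AGGTCA. A match is a description of letters, not a site.

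The other members among the 20 strongest by pooled signal came with mixed support from the replicates. col-168 had a signal of 23.8 at rank 1061, with the summit 1722 bp upstream and replicate ranks of 2170 and 6840. col-78 had a signal of 23.1 at rank 1312 in a coding exon, with rank 2930 in replicate 1 and no summit in the replicate 2 list. The pooled signals of col-173, col-156, col-164 and col-133 were 21.8, 21.8, 21.5 and 21.4, and all 4 had an assigned summit in both replicates. At col-164 the nearest replicate 2 summit lay 205 bp from the pooled one, beyond the 192 bp taken as the same place. The pooled summit of col-164 lay 29 bp inside the gene and those of the other 3 upstream.

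Further down, col-99 stood apart by position, with an intronic summit 3453 bp from its 5′ end. Its pooled signal was 21.0 at rank 2463, and the same intron had a signal of 13.8 at rank 260 in replicate 2. The best replicate 1 summit of col-99 ranked 22158 and lay elsewhere in an intron. With 4 assigned pooled summits and a length of 9946 bp, col-99 had the most summits of any member. col-10, col-43, col-92 and col-98 followed at pooled ranks 2983, 2995, 3140 and 3437. The divergent pair col-183 and col-184 shared a summit 845 and 846 bp upstream at rank 4401, and col-128 had one at rank 4692.

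The rank limit of 5000 fell in a continuous run of values. The last members inside it were col-170 at rank 4719 with a signal of 18.7 and col-34 at rank 4983 with a signal of 18.5. The first outside was col-96 at rank 5008, also with a signal of 18.5. col-34 and col-96 both had their summit in a coding exon, and both ranked far higher in replicate 2 (2049 and 1765) than in replicate 1 (27092 and 28914).

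Best ranks of the replicates were almost unrelated within the family. Across the 75 col- genes with a summit in both lists, Spearman's rho between best replicate ranks was 0.0634, against 0.0765 across 3574 other genes of like length. This is a correlation across genes that share the same libraries and sometimes the same peak, and it is given as a description. The ratio of replicate 1 to replicate 2 rank ran from 0.00823 at col-159 and col-160 and 0.0972 at col-156 to 27.3 at col-69, 52.2 at col-12 and 85.2 at col-99. A top-5000 summit in both replicates was found at col-63, col-121 and col-76, 1.92% against 3.88% of the others. col-76 was named after its values were seen. Its best replicate summits, at ranks 4462 and 224, lay 349 and 1892 bp upstream and so were not the same peak.

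**Figure D2:**
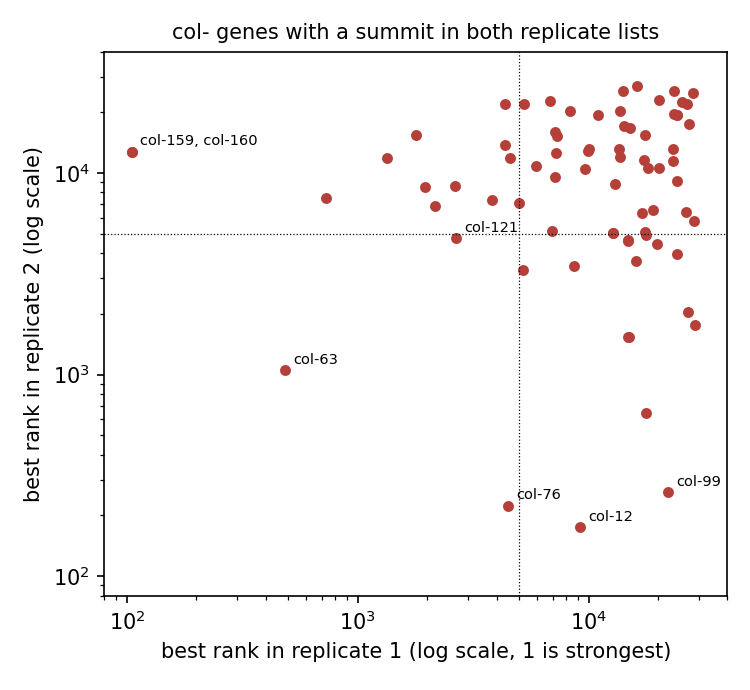
Best rank in replicate 1 (x axis, log scale) against best rank in replicate 2 (y axis, log scale) for the 75 col- genes with a summit in both lists, where 1 is the strongest peak. Each point is a gene or a pair with one summit, dotted lines mark rank 5000, and the points form a cloud without a diagonal trend (rho 0.0634).

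In the family as a whole, the best peaks of col- genes were not strong. The median best pooled rank of the 103 col- genes with a summit was 13519, with quartiles of 6048 and 20597.5, against 11072.5 in other genes of like length. Their best signals ran from 11.1 to 32 with a median of 14.6, while the median of all pooled peaks was 14.1. In replicate 1 the median best rank was 14107 against 11211.5, and in replicate 2 it was 11152 against 11165.5. A single summit was assigned to 67 genes, 2 summits to 28 and 3 or more to 8.

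The position of the summits relative to the collagen genes was where the replicates parted. Pooled summits lay inside 37 col- genes, 23.7% (17.3% to 31.2%), against 40.6% of other genes of like length. In replicate 1 they lay inside 33 genes, 21.2% (15.03% to 28.4%), against 39.1%. In replicate 2 they lay inside 72 genes, 46.2% (38.2% to 54.3%), against 42.4%. Other coding genes between the shortest and the longest col- gene were also weighted to the lengths of the col- genes. Their shares were 36.8%, 35.9% and 39.3% in the pooled, replicate 1 and replicate 2 lists. So the gap seen in the pooled and replicate 1 lists was not present in replicate 2. Upstream, the shares were near those of genes of like length, though not always at the same genes. They were 51.3%, 53.8% and 52.6% of col- genes in the pooled, replicate 1 and replicate 2 lists. In the others they were 49.9%, 50.3% and 47.8%. Among genes of 40.4% to 55.9% GC the col- shares upstream were higher in each of these lists. They were 53.2% against 43.4%, 54.8% against 43.4% and 50% against 46.3%.

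**Figure D3:**
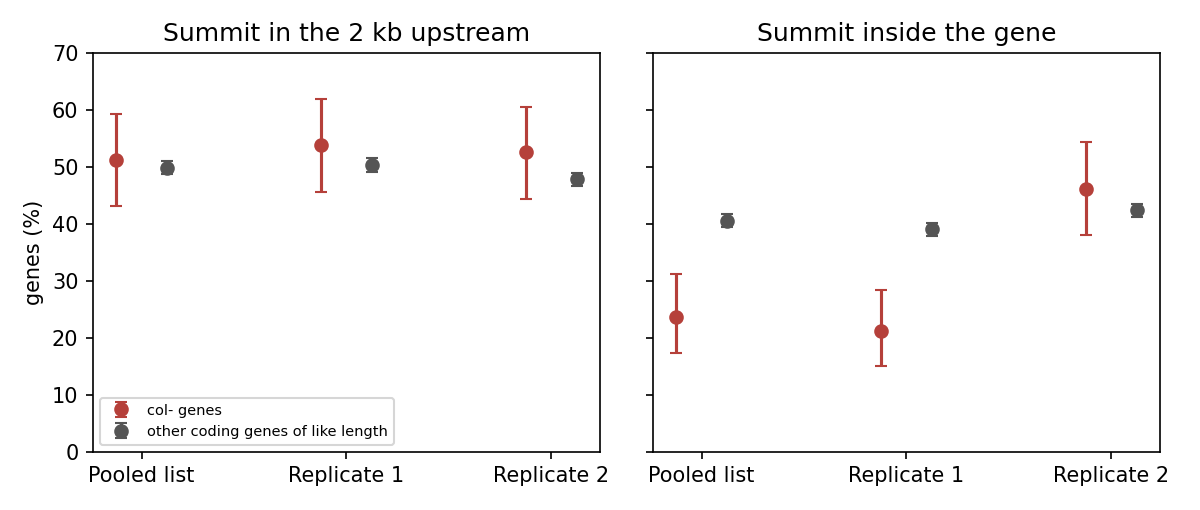
Share of genes (%) with a summit inside the gene and with a summit in the 2 kb upstream, for the pooled, replicate 1 and replicate 2 lists, for the 156 col- genes (red) and the 7059 other genes of like length (grey), with exact 95% intervals over genes. Inside the gene the col- share is lower in the pooled (23.7%) and replicate 1 (21.2%) lists and not in replicate 2 (46.2%), while the upstream shares of the lists lie between 51.3% and 53.8%.

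The same split appeared per length. Inside col- genes there were 19.6 pooled summits per 100 kb against 31.8 in the others, 14.5 against 30.4 in replicate 1 and 39.6 against 33.4 in replicate 2. Upstream, the densities were 32.7 against 32, 35.6 against 32.4 and 30.8 against 30.8. A summit inside in both replicates was found in 22 col- genes, 14.1% against 20.1% of the others. Replicate 1 alone had one in 11 col- genes and replicate 2 alone in 50, while among the 7059 others these counts were 1339 and 1572. A summit upstream in both replicates was found at 47 col- genes, 30.1% against 28.0% of the others. Replicate 1 alone had one upstream of 37 col- genes and replicate 2 alone of 35, while among the others these counts were 1576 and 1401. Of the 148 pairs of a col- gene and a pooled summit, 102 (68.9%) were upstream, against 56.4% in the others. The upstream share of pairs was 76.6% in replicate 1 and 50.8% in replicate 2.

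Within the pooled pairs, 28 summits lay in a coding exon, 15 in an intron and 3 in a 3′ UTR. Of all pooled pairs of the col- genes, 33.1% lay 1000 to 2000 bp upstream, 15.5% between 500 and 1000 bp and 20.3% within 500 bp, against 27.3%, 13.8% and 15.2% in the others. In replicate 2, each of the first 2 bins of 250 bp inside the gene held 20 summits, or 12.8 per 100 col- genes, against 8.13 and 7.81 in the others. In replicate 1 these bins held 8 and 4 summits, or 5.13 and 2.56 per 100 genes.

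**Figure D4:**
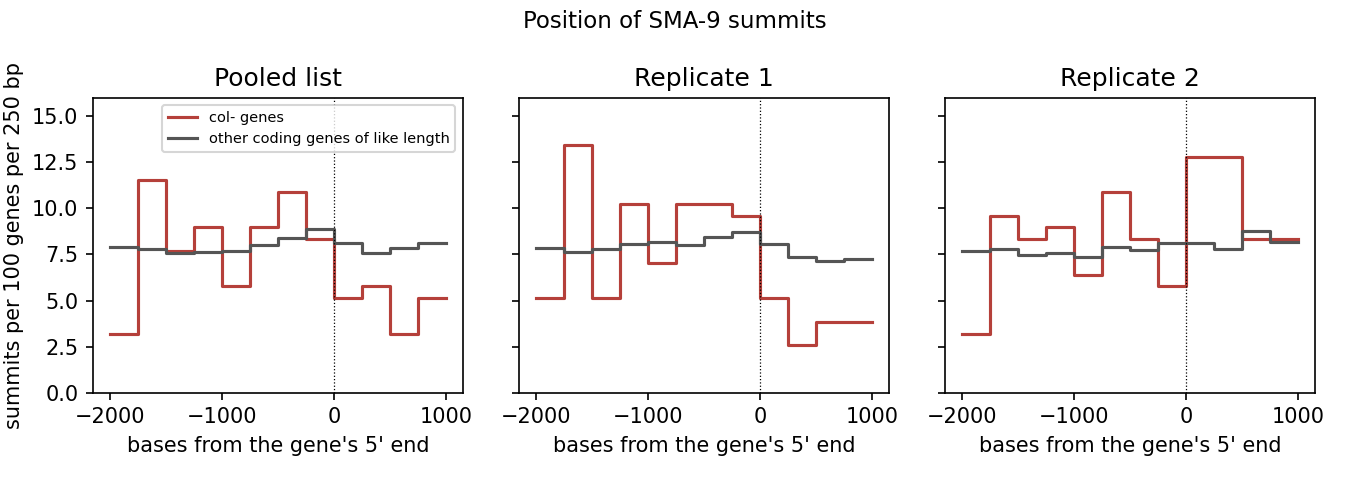
Summits per 100 genes in bins of 250 bp along the distance from the gene's 5′ end (x axis, bases, negative upstream, shown to 1000 bases inside), for each list, with the col- genes in red and the other genes of like length in grey. In the first 500 bp inside the gene the col- line is above the others in replicate 2 (12.8 per 100 genes) and below them in replicate 1 (5.13 and 2.56).

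Base composition was set beside this pattern. The col- gene bodies had a median GC content of 49.1%, against 36.4% in the other genes of like length, while the 2 kb upstream had 34.9% in both. Among the other genes, the share with a replicate 1 summit inside went from 41.8% of genes under 40% GC to 11.1% of the 27 genes of 50 to 55% GC. In replicate 2 the same shares were 42.4% and 37.0%. At 55% GC or over, the 10 other genes had 20% in replicate 1 and 50% in replicate 2, and the 24 col- genes 16.7% and 29.2%. Peaks of replicate 2 were also richer in GC, with 10.9% of summit windows at 45% GC or over, against 5.74% in replicate 1. Among genes of 40.4% to 55.9% GC, a pooled summit lay inside 21.0% of 124 col- genes and 33.0% of 1284 others. In the same genes a replicate 1 summit lay inside 17.7% and 28.3%, and a replicate 2 summit inside 43.5% and 42.4%. In bins of GC content, the replicate 1 shares were 30% against 30.9% at 40 to 45% GC, 11.6% against 20.1% at 45 to 50% and 15.6% against 11.1% at 50 to 55%, so col- genes stood on both sides of the others. The pooled shares in these bins were 36.7% against 34.9%, 13.95% against 26.4% and 24.4% against 22.2%, also on both sides. The 14 col- genes under 40% GC had a summit inside in 57.1% of cases in replicate 1 and 78.6% in replicate 2. What base composition contributes to the gap was not tested.

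**Figure D5:**
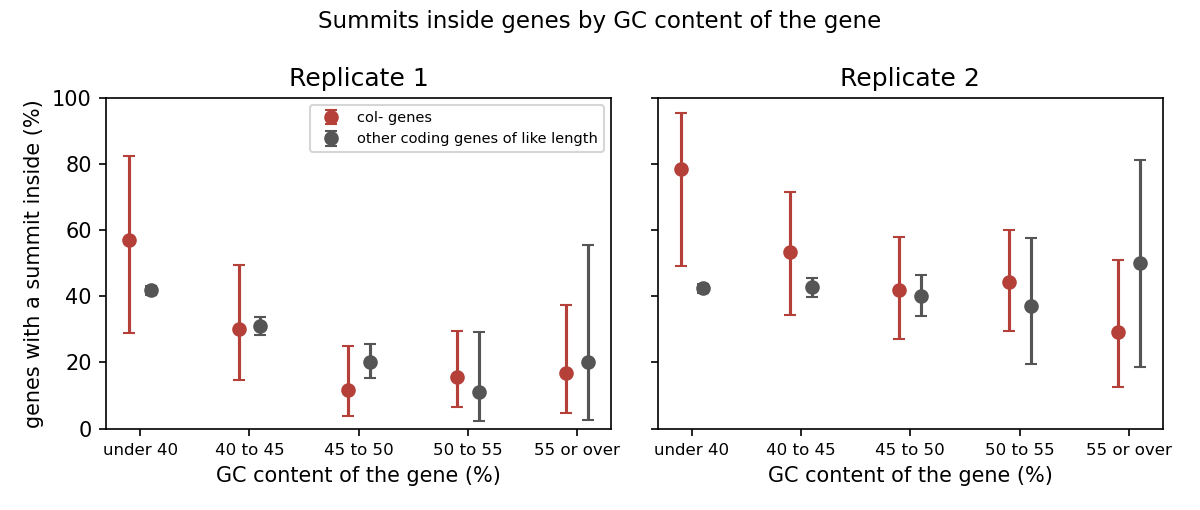
Share of genes (%) with a summit inside the gene by GC content of the gene (x axis, %), for each replicate, with exact 95% intervals over genes, for col- genes (red) and other genes of like length (grey). In replicate 1 the share in other genes goes from 41.8% under 40% GC to 11.1% at 50 to 55% GC, while in replicate 2 it goes from 42.4% to 37.0%. The last bin holds 10 other genes, at 20% and 50%.

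Repeated sequence was also counted in the gene bodies. The median share of 32-base words that occur once was 98.8% in col- bodies and 100% in the others, and 22 col- genes were under 50%. Of those 22 genes, none had a pooled summit inside, 2 had a replicate 1 summit and 1 a replicate 2 summit, while 15, 12 and 11 had one upstream. In 252 other genes under the same limit, summits lay inside 2.78%, 1.98% and 1.19%. They lay upstream of 17.1%, 24.6% and 18.7% of these others, against 68.2%, 54.5% and 50% of the col- genes. The limit was set on the gene body alone, and repeated sequence in the upstream windows was not compared between these sets. In the 103 col- genes with at least 95% single-copy words, summits lay inside 26.2%, 23.3% and 54.4% in the pooled, replicate 1 and replicate 2 lists, against 44.1%, 42.4% and 45.4% of 5844 others. Genes that met this limit and also had 40.4% to 55.9% GC were 81 col- genes and 960 others. Summits lay inside 21.0%, 17.3% and 49.4% of these col- genes in the same lists, against 37.5%, 31.0% and 48.8% of these others. The part of repeated sequence in the gap was not tested.

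A short list of 4 collagens tied to the BMP-like pathway, col-41, col-141, col-142 and rol-6, was read separately. All 4 had a replicate 1 summit, where 68.7% of other genes of like length had one, and no replicate 2 summit. As background, col-41 and col-141 act in the control of body length by that pathway, as does rol-6, and SMAD binding has been described at col-141 and col-142. At col-141 the pooled signal was 17.7 at rank 6073, with the summit 1672 bp upstream, and the replicate 1 signal was 13.3 at rank 3856. That summit also lies in the window of the neighbouring gene dmsr-15. At col-142 the pooled signal was 11.5 at rank 26767, 136 bp upstream, and the replicate 1 signal 11.7 at rank 7171. At col-41 there was no pooled summit, and the replicate 1 signal was 11.7 at rank 6992, 1745 bp upstream. rol-6 ranked 18812 in the pooled list. None of the 4 genes had a summit in the replicate 2 list, where 69% of other genes of like length had one, and none was in the thresholded list.

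The 200 bases upstream of these collagens are shown because SMAD-type elements have been described there for some of them. They come from the WBcel235 (ce11) assembly, for col-141 V:6829504-6829703 on the plus strand, for col-142 V:6830977-6831176 on the plus strand and for col-41 X:15176482-15176681 on the minus strand, 5′ to 3′, with the same motifs in capitals.
col-141 upstream: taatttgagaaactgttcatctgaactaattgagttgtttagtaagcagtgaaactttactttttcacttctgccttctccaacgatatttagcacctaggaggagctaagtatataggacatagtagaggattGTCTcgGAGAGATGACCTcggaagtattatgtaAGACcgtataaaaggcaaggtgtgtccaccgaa
col-142 upstream: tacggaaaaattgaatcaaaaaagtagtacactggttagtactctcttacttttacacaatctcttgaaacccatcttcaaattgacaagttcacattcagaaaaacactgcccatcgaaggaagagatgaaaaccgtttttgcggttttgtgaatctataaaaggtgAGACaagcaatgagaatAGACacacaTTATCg
col-41 upstream: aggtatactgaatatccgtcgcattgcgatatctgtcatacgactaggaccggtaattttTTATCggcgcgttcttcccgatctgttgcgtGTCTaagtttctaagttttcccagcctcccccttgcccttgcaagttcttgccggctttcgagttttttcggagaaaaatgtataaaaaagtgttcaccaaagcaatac
The col-141 and col-142 windows each hold 2 GTCT matches and the col-41 window 1. The pooled summit of col-142 lies within its window, and the summits of col-141 and col-41 lie further upstream. col-19, a collagen used as a marker of the adult cuticle, had a summit 1375 bp upstream with a pooled signal of 14.3 at rank 14602, replicate 1 rank 14999 and no replicate 2 summit.

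Motif letters were counted in the promoters, here 250 bases before to 50 after the gene's 5′ end, on both strands. GTCT occurred in 84.6% of the col- promoters, 77.4% of those of like length and 77.0% of all coding promoters. GAGAGA occurred in 26.9%, 18.7% and 21.8%, and the reverse complement of GTCT can share letters with it. GATAA occurred in 62.2%, 58.9% and 57.6%, AGGTCA in 13.5%, 8.71% and 8.27%, and CACGTG in 1.28%, 6.33% and 5.82%. Within the col- genes, GTCT was in the promoter of 84.5% of those with a pooled summit and 84.9% of those without. For GATAA these shares were 66.0% and 54.7%, and for AGGTCA 12.6% and 15.1%. In windows of 201 bases at the summits, GTCT was in 58.6% of those at col- genes and 60.9% of the others.

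Many collagen summits could belong to a neighbour. The 148 pairs came from 140 pooled peaks, of which 115 (82.1%) had a col- gene as the nearest coding start. Yet 73 of the 140 (52.1%) also lay in the window of another coding gene that is no collagen of this name, and 40 (28.6%) lay inside such a gene. Another coding gene of any name was shared for 57.1% of these peaks, against 50.6% of those at other genes. Of the 140 places, 81 had a replicate 1 summit within 192 bp (57.9% against 64.7%), 70 had a replicate 2 summit (50% against 50.03%) and 25 had both (17.9% against 25.1%).

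Neighbouring collagens did not share one pattern. The 50 col- genes in 21 runs, with starts within 10 kb of the next, had a pooled summit in 66% of cases, and the 106 lone genes in 66.0%. The longest run, col-167 to col-171, spans 11.7 kb of chromosome X. In the pooled list col-168 ranked 1061, col-170 4719 and col-167 17244, while col-169 and col-171 had no summit. In replicate 2 all 5 had one, at ranks from 6840 to 18728, and in replicate 1 only col-168 and col-170, at ranks 2170 and 13493. The gene bodies of col-167, col-168, col-169 and col-170 hold 14.7%, 4.80%, 34.6% and 21.3% single-copy words, and the bearing of this on their peaks was not tested.

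Other runs of 3 genes varied in the same way. On chromosome V, col-143, beside col-141 and col-142, had a replicate 2 signal of 10 at rank 2337 and none in replicate 1, the reverse of those neighbours. col-144, col-145 and col-10 all had a pooled summit, at ranks 17135, 25834 and 2983. On chromosome III, col-92 ranked 3140 and col-94 ranked 7538 with replicate 1 rank 460, while col-93 had no summit in any list. On chromosome II, col-20 and col-73 shared a summit at rank 13360 and col-17 ranked 28139. Of col-79, col-39 and col-80, only col-79 had a pooled summit, at rank 10106.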

How the data were processed

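ChIP-seq of eGFP-tagged SMA-9 in L2 larvae had 2 biological replicates in 1 group, as the labels number them. The authors deposited, in ce11, a relaxed peak list per replicate and for the pooled reads, and a thresholded list. The value used, the authors' deposited signal in column 7, has no stated scale, so it ranks peaks within a list only. The aligner is not given in the sources used here, nor are the peak caller and the threshold of the thresholded list. Read depth is unknown, the control libraries and the ce10 lists were not used here, and the fixed length of the relaxed lists, 30000 peaks each, measures nothing.

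Summits were joined to Ensembl release 115 genes of WBcel235, whose coordinates are those of ce11, and bases were read from RefSeq's copy of that build. Coordinates are 1-based. A gene was called with a peak when a summit lay in it or within 2000 bp upstream. A summit may serve several genes. Replicate summits within 192 bp of a pooled summit were called the same place. Intervals printed beside shares are exact 95% (Clopper-Pearson) and cover counting error over genes only. No test was run, since there is 1 group.

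The members and lists were chosen with earlier results of these data known. Named genes are the 20 with the highest pooled signal, col-41, col-141, col-142, col-19 and col-99, the 3 largest and 3 smallest replicate rank ratios, the members of the largest runs, those beside rank 5000, and up to 3 per related list. Because 5 runs tie at 3 genes, all were named. Neighbouring genes, the end of a run and col-76 were named after their values were seen. Alternatives were list length, replicate, upstream distance, peak overlap, single assignment and the choice of other genes. Python 3.11.15 with numpy 2.4.6, pandas 2.3.3, scipy 1.17.1, biopython 1.88 and matplotlib 3.10.9 was used. The assignment was tested on simulated data.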

Additional observations from a re-analysis of the deposited data

How the results depend on the processing

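Over the 9 results, 45 of 83 alternatives left the value within its spread, 37 moved it and 1 turned its direction. Among those moved, the difference in the share with a summit also changed sign. The spread of a share was its exact 95% interval. For a difference it was the interval of the col- share less the fixed share of the others. For the median rank it was the standard deviation of the replicate medians, 2089.5, on either side. The share of col- genes with a pooled summit, 66.0%, became 14.1% with the 5000 strongest peaks, 1.92% with 1000, 0% in the thresholded list, 40.4% with 500 bp upstream, 53.2% with 1 kb, 85.9% with 5 kb and 54.5% with each summit given to 1 gene. Over the replicate lists alone it ran from 63.5% to 75%. For the other genes, 68.8% became 16.6%, 3.39%, 0.184%, 50.7%, 58.0%, 86.7% and 56.5% under the same settings, 72.9% with any overlap, 73.2% over all other genes, 66.6% weighted for length and 73.7% between the shortest and the longest col- gene. The difference, -2.82 points, ran from -5.25 to 6.04 over the replicate lists, so against genes of like length its sign rests on replicate 1. It was -10.3 with 500 bp upstream, -4.82 with 1 kb and -0.758 with 5 kb. With other comparison genes it was -7.71 between the shortest and the longest col- gene, -7.21 over all other genes and -0.569 weighted for length. Among genes of 40.4% to 55.9% GC the pooled col- share was the higher, 66.1% against 60.5%. The share among the 5000 strongest peaks became 6.41% with 500 bp and 28.8% with 5 kb. The median best rank was 15775, 15623 and 8017.5 with 500 bp, 1 kb and 5 kb, and 11152 to 14107 over the replicates. The upstream share of summits was 39.5%, 53.5% and 85.2% at these distances and 50.8% to 76.6% over the replicates. The share in both replicates was 23.1%, 34.0% and 82.1% at these distances, 35.9% with single assignment and 1.92% with the 5000 strongest peaks of each.

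The alternatives for summits inside the gene were chosen after seeing the data. The col- share there, 23.7%, ran from 21.2% to 46.2% over the replicates, and the difference from other genes, -16.9 points, became 3.75 without replicate 1 and -17.9 without replicate 2, so its direction rests on replicate 1. In the pooled list the difference was -12.1 among genes of 40.4% to 55.9% GC, -17.8 among genes of single-copy sequence and -16.5 with both limits. Weighted for length it was -13.1. The GC range does not make the sets equal in GC. At 40 to 45% GC there were 30 col- genes and 1139 others, and at 50 to 55% there were 45 and 27. In these bins the pooled col- share inside the gene was slightly the higher, 36.7% against 34.9% and 24.4% against 22.2%. At 45 to 50% GC it was the lower, 13.95% against 26.4%. The cause was not tested. No paired analysis was possible because there is only 1 group. Depth is unknown, so no limit on peak detection can be given.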

Other observations

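Other collagens and genes listed for collagen processing were read the same way. Of 19 cuticle collagens named for a mutant phenotype, 15 had a pooled summit, 15 a replicate 1 summit and 12 a replicate 2 summit, where 68.8%, 68.7% and 69% of other genes of like length had one, and none was in the thresholded list. The best was bli-2, a collagen of the struts of the adult cuticle, with a signal of 23.2 at rank 1250 and the summit 1798 bp upstream, the only one of the 19 among the 5000 strongest pooled peaks, which reached 16.6% of those other genes. dpy-10 and dpy-8, which form furrow collagens, ranked 6657 and 6746.

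All 4 basement membrane and other collagens had a pooled summit, 3 of them among the 5000 strongest peaks. emb-9 and let-2, the chains of type IV collagen, ranked 1335 and 2988, and cle-1, the type XVIII collagen, ranked 3960. These genes are 4944 to 18612 bp long, so they were open to more peaks than the col- genes. Of 10 genes listed for collagen processing, not all of them enzymes, all had a pooled summit and 3 were among the 5000 strongest. Over all coding genes other than col- genes these shares were 73.2% and 20.8%. dpy-31, a metalloprotease of procollagen, had a signal of 25.3 at rank 668, phy-2, a prolyl 4-hydroxylase subunit, 24.98 at rank 729, and mlt-7, a peroxidase, 20.9 at rank 2540. They too are longer than most col- genes, from 2129 to 14457 bp, and the effect of length on these ranks was not tested.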
